A study of Danio rerio with 2 samples.

Results

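The genes described here are *stk11*, *strada* and *cab39l*, which code for the 3 kinds of subunit of the LKB1 complex. They are all the genes on the zebrafish mTOR signaling PCR array whose symbol begins with stk11, strad or cab39, that is 3 of the 84 pathway genes. The array read them in homozygous NOD1-1IS-/- zebrafish, which carry a single-base insertion that Cas9 and a gRNA made in *NOD1*, and in wild-type (WT) zebrafish of the AB/TU background. Whole larvae of either genotype were taken at 10 dpf and pooled into 3 biological replicates of 200 to 250 larvae each. No larva received any treatment on this array, and the mutant is a single allele. In pools of whole larvae, fewer cells of a type and less RNA per cell cannot be told apart. A p-value here sets the difference between genotypes against the spread between pools. The source of each pool (the same or another clutch) is not given. If the pools of a genotype shared a clutch, clutch and genotype could not be told apart. The gene *nod1* has no well on the array, so the genotype of a pool was not checked by its own transcript.

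LKB1, the product of *stk11*, is a serine/threonine kinase that phosphorylates AMPK in its activation loop and thereby switches it on. It is held in an active shape and in the cytoplasm by STRAD, a pseudokinase that binds but does not phosphorylate substrates, and by MO25, a scaffold protein whose genes are called *cab39* and *cab39l*. Active AMPK restrains mTORC1 when cellular energy is low, and in mammals it does so by phosphorylating TSC2 and Raptor. LKB1 is best known as the tumor suppressor mutated in Peutz-Jeghers syndrome. The RefSeq gene table of the assembly GRCz12tu lists further zebrafish genes of these families, namely *stradb*, *cab39* and *cab39l1*. They have no well on the array. The RefSeq identifiers of all 3 genes on the array, NM_001017839 for *stk11*, NM_199911 for *strada* and NM_001007327 for *cab39l*, matched this table under the same symbols.

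The question of the comparison is whether transcripts of the kinase complex upstream of AMPK differ between NOD1-1IS-/- and WT larvae. Relative to the reference genes *hprt1*, *nono* and *rpl13a*, none of the 3 did so beyond the spread between pools. Over the 12 bases of the scaling described below, *stk11* was called higher in 5. Under those 5 bases, 21.4% to 65.5% of all 84 pathway genes were called higher as well. They include *b2m* alone and *acta1b* alone, where the p-values are too small, as described below. The array gives the threshold cycle (Ct) at which the product of a well crosses a fixed fluorescence, so a Ct that is lower by 1 cycle stands for 2 times as much template if every cycle doubles the product. Expression is given as ΔCt, which is how many cycles later a gene crossed the threshold than the average of the reference genes *hprt1*, *nono* and *rpl13a* did in the same pool. A lower ΔCt is higher expression. The log2 fold change is the mean ΔCt of WT minus that of NOD1-1IS-/-, so it is positive where a transcript was higher in the mutant. Levels of different genes are not set against each other, because each gene was read by its own primer pair.

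For *stk11*, the kinase itself, ΔCt was 3.01, 3.03 and 3.06 cycles in NOD1-1IS-/- replicates 1, 2 and 3, against 3.29, 3.25 and 2.95 cycles in the WT replicates. The mutant pools lay close together, above the third WT replicate and below the other WT replicates, so the genotypes overlapped. The mean ΔCt was 3.03 ± 0.028 cycles in NOD1-1IS-/- and 3.16 ± 0.19 cycles in WT (SD, n = 3 each). With limma this came to a log2 fold change of 0.13 with a standard error of 0.12 and an adjusted p of 0.487, or a fold of 1.09 with a 95% confidence interval of 0.912 to 1.31.

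The gene *strada* codes for the alpha form of the pseudokinase. Its ΔCt was 4.005, 4.124 and 3.937 cycles in the 3 NOD1-1IS-/- replicates, against 3.923, 4.080 and 3.831 cycles in the WT replicates. WT replicates 1 and 3 were below all mutant pools, and WT replicate 2, above 2 of the mutant pools, made the genotypes overlap. The mean ΔCt was 4.02 ± 0.095 cycles in NOD1-1IS-/- and 3.94 ± 0.13 cycles in WT (SD, n = 3 each). The fit by limma put the log2 fold change at −0.08 (standard error 0.11) and the adjusted p at 0.660, or a fold of 0.948 with a 95% confidence interval of 0.798 to 1.13.

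The gene *cab39l* codes for the scaffold, a protein of the MO25 type. Its ΔCt was 0.995, 0.845 and 1.09 cycles in the NOD1-1IS-/- replicates, against 0.944, 0.948 and 0.701 cycles in the WT replicates. The second mutant pool was below 2 of the WT pools, and the third WT pool was below all others. The mean ΔCt was 0.977 ± 0.12 cycles in NOD1-1IS-/- and 0.864 ± 0.14 cycles in WT (SD, n = 3 each). Its log2 fold change by limma was −0.11 with a standard error of 0.12, for an adjusted p of 0.521, or a fold of 0.925 with a 95% confidence interval of 0.771 to 1.11.

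**Figure D1:**
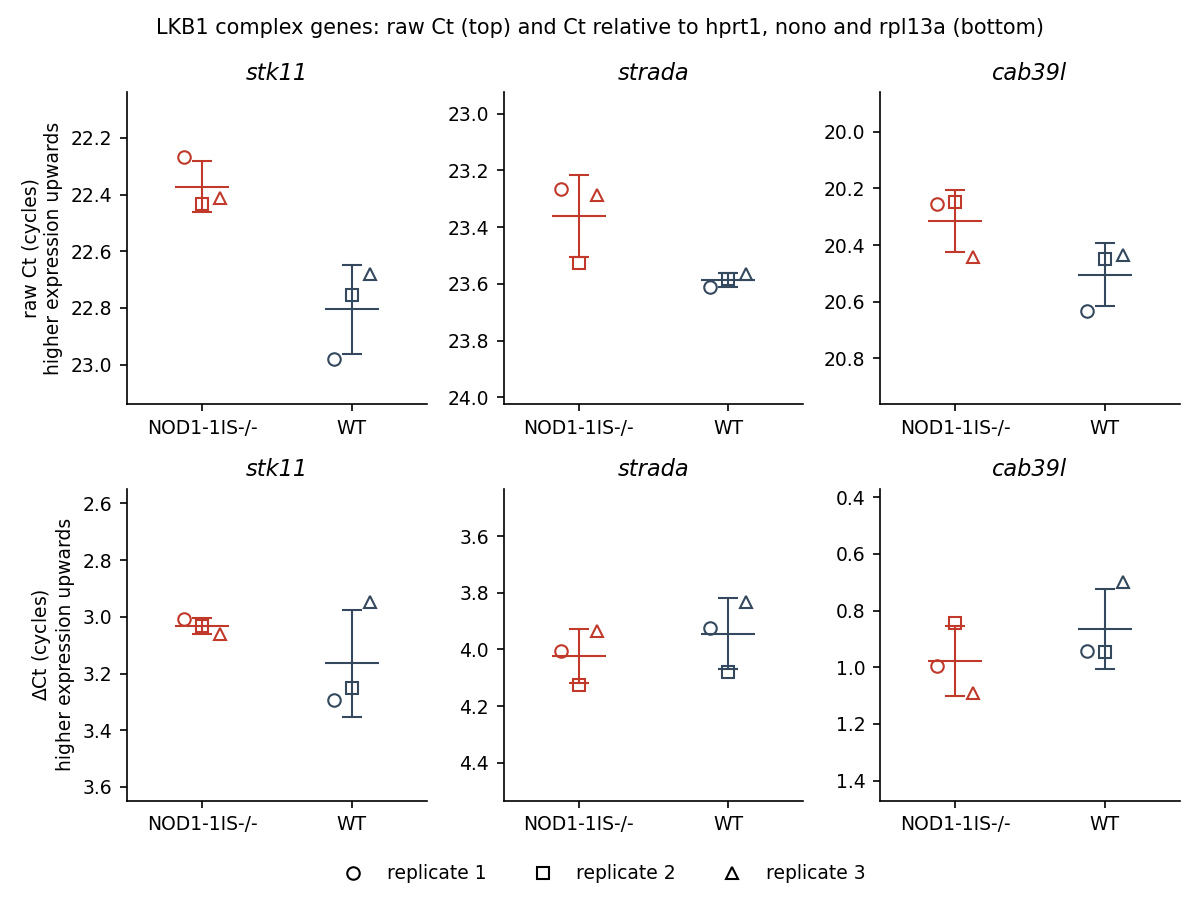
Raw Ct (top) and ΔCt relative to hprt1, nono and rpl13a (bottom), in cycles on reversed axes, of stk11, strada and cab39l in 3 NOD1-1IS-/- and 3 WT pools; symbols are replicates, horizontal bars are means and error bars are SD. On raw Ct the stk11 pools of the genotypes lie apart, with mutants between 22.27 and 22.43 cycles and WT between 22.68 and 22.98 cycles. The strada pools lie apart too, with mutants between 23.27 and 23.53 cycles and WT between 23.56 and 23.61 cycles. Raw Ct did not overlap for 50.0% of the 84 pathway genes. ΔCt overlaps for all 3 genes.

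A two-sided exact permutation test over the 6 pools gave p = 0.4 for each of the 3 genes on ΔCt, where 0.1 is the smallest p that 3 pools against 3 allow. By limma, 0 of the 3 genes passed the threshold of 0.05 in either direction, with or without adjustment of p. Of the 84 pathway genes, 19.0% were called lower and 3.57% higher in NOD1-1IS-/- after adjustment. Without adjustment, 27 of the 84 had a limma p under 0.05. Beside shares of this size, 0 of 3 genes does not set the members apart from the array. The ΔCt of the genotypes did not overlap for 0 of the 3 genes and for 38.1% of the 84. The upper and lower ends of the confidence intervals above bound a change of these transcripts, relative to *hprt1*, *nono* and *rpl13a*, to less than 1.31-fold upwards and to no less than 0.771 of WT downwards. A difference within these bounds was not detectable with 3 pools.

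Single pools moved these values without making a call. Left out one at a time, they gave log2 fold changes from 0.07 to 0.24 for *stk11*, from −0.14 to −0.02 for *strada* and from −0.18 to −0.03 for *cab39l*. The high end for *stk11* came without WT replicate 3, with an adjusted p of 0.167 from limma. Over the pools left out, the adjusted p of *stk11* from limma ran from 0.167 to 0.832. Over all alternatives, which include the other bases described below, its low end was 0.00185, with *b2m* alone as the base. WT replicate 3 had the lowest ΔCt of its genotype for all 3 genes. It also had the highest mean Ct of the reference genes among the 6 pools, 19.73 cycles, against 19.69 and 19.50 cycles in WT replicates 1 and 2. The part of the reference genes in the low ΔCt of this pool was not tested.

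Against the rest of the array *cab39l* and *strada* stood near the middle, and *stk11* was in the upper part. The median log2 fold change was −0.08 over the 3 genes and −0.11 over all 84. Ordered from the lowest log2 fold change, *cab39l* was at place 42, *strada* at place 46 and *stk11* at place 70 of 84. By the size of the change, from the largest, the places were 53 for *stk11*, 58 for *cab39l* and 64 for *strada*. The SD of ΔCt within genotypes, pooled over both, was 0.135 cycles for *stk11*, 0.111 for *strada* and 0.133 for *cab39l*, against a median of 0.149 over the 84 genes. Since another reference shifts all genes of a pool by the same amount, the values were also given as the distance from the median of the 84 genes, which is the same under every reference. Relative to that median, *stk11* was at 0.24, *strada* at 0.03 and *cab39l* at −0.0011 on the log2 scale.

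**Figure D2:**
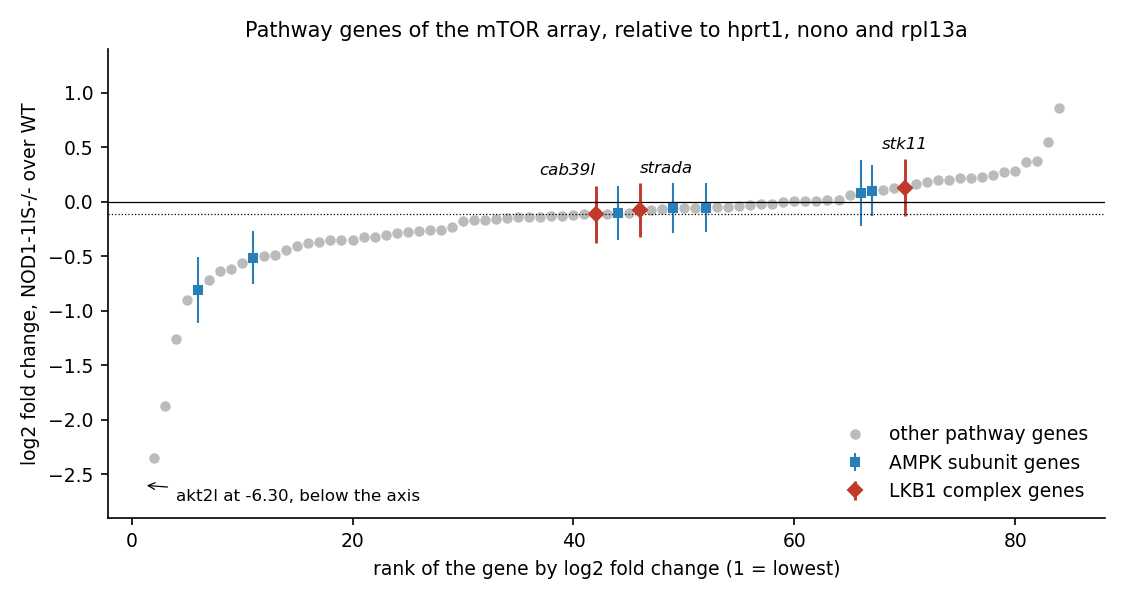
Log2 fold change of NOD1-1IS-/- over WT (vertical axis) for the 84 pathway genes in order of their value (horizontal axis); diamonds are the LKB1 complex genes and squares the AMPK subunit genes, both with 95% confidence intervals from limma, grey points are the other genes, and the dotted line is the median. The intervals of stk11, strada and cab39l all cross 0; the lowest gene, akt2l, at −6.30, lies below the axis.

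The AMPK genes on the same plate place these values one step further along the pathway. Among the 7 AMPK subunit genes, 2 passed the threshold as lower in NOD1-1IS-/- larvae (against 19.0% of the 84 pathway genes) and 0 as higher, around a median of −0.06 on the log2 scale. The lower ones were *prkaa2*, which codes for a catalytic alpha subunit (log2 fold change −0.51, standard error 0.11, adjusted p = 0.00664 from limma), and *prkab2*, which codes for a regulatory beta subunit (−0.81, standard error 0.14, adjusted p = 0.00217 from limma). These calls too moved with the choice of reference: over the 12 bases described below, *prkaa2* was called lower in 6 and *prkab2* in 10, and neither was called higher. The counts include *nono* alone for both genes, where 29 of the 84 pathway genes were called lower. They also include the positive PCR control for *prkab2*. Under these 2 bases the p-values from limma are too small, as described below. With *acta1b* alone both were above 0, at 0.49 for *prkaa2* and 0.19 for *prkab2* on the log2 scale, and on raw Ct they were at −0.21 and −0.51. The other catalytic subunit gene, *prkaa1*, did not pass, at −0.10 on the log2 scale with a limma adjusted p of 0.521. Of the 3 genes for substrates of AMPK, *tsc2*, *rptor* and *ulk1b*, 0 passed the threshold. Their log2 fold changes were −0.35 for *tsc2* (adjusted p = 0.0755 from limma), −0.05 for *rptor* (adjusted p = 0.815) and 0.28 for *ulk1b* (adjusted p = 0.0812). Whether the LKB1 complex genes differ from the AMPK subunit genes was not tested.

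The ratio of 2 genes within a pool needs no reference gene, so it does not move with the choice of reference. For each of the 3 pairs of members, the log2 ratio was taken as the difference of their Ct values in the same pool. The log2 ratio of *stk11* over *cab39l* was −2.01, −2.19 and −1.97 in the NOD1-1IS-/- replicates, against −2.35, −2.30 and −2.25 in the WT replicates. All 3 mutant pools lay above all 3 WT pools. The mean was −2.06 ± 0.11 in NOD1-1IS-/- and −2.30 ± 0.051 in WT (SD, n = 3 each), a difference of 0.24 on the log2 scale (standard error 0.072), or 1.18-fold. The two-sided exact permutation test gave p = 0.1, the smallest it can give, and 0.3 after Benjamini-Hochberg adjustment over the 3 pairs. Among all 3486 pairs of pathway genes, the ratio did not overlap between the genotypes for 45.4%, so a ratio without overlap was common on this array.

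The log2 ratio of *stk11* over *strada* was 0.998, 1.09 and 0.875 in the NOD1-1IS-/- replicates, against 0.631, 0.829 and 0.885 in the WT replicates. The third pools of both genotypes had nearly the same ratio and made the groups overlap. The difference was 0.21 on the log2 scale (standard error 0.10), with an exact permutation p of 0.2 and an adjusted p of 0.3. For *strada* over *cab39l* the log2 ratio was −3.01, −3.28 and −2.85 in NOD1-1IS-/- pools, against −2.98, −3.13 and −3.13 in WT pools. The mutant pools lay on both sides of the WT pools, and the difference was 0.04 (standard error 0.14) with an exact permutation p of 1. After the pools were left out one at a time, the difference ranged from 0.20 to 0.31 for *stk11* over *cab39l*, from 0.13 to 0.26 for *stk11* over *strada* and from −0.06 to 0.15 for *strada* over *cab39l*.

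**Figure D3:**
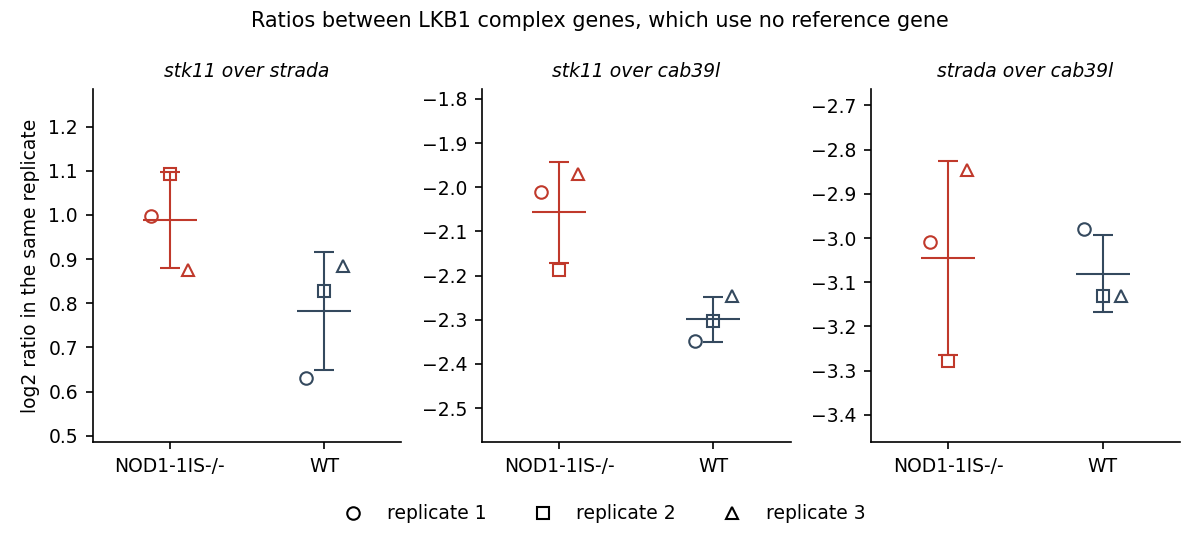
Log2 ratio between 2 LKB1 complex genes in the same pool (vertical axis) in 3 NOD1-1IS-/- and 3 WT replicates; symbols are replicates, horizontal bars are means and error bars are SD, and every panel spans the same range on the log2 scale. The ratio of stk11 over cab39l is higher in each mutant pool (−2.19 to −1.97) than in each WT pool (−2.35 to −2.25), and the other two ratios overlap.

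Before any reference was applied, all 3 genes crossed the threshold earlier in NOD1-1IS-/- pools on average. The raw Ct of *stk11* was 22.27, 22.43 and 22.41 cycles in NOD1-1IS-/-, against 22.98, 22.75 and 22.68 cycles in WT, with no overlap. That of *strada* was 23.27, 23.53 and 23.29 cycles in NOD1-1IS-/-, against 23.61, 23.58 and 23.56 cycles in WT, also with no overlap. That of *cab39l* was 20.26, 20.25 and 20.44 cycles in NOD1-1IS-/-, against 20.63, 20.45 and 20.43 cycles in WT, and here the third pools crossed. The mean difference was −0.43 cycles for *stk11*, −0.23 for *strada* and −0.19 for *cab39l* (exact permutation p = 0.1, 0.1 and 0.2). Raw Ct did not overlap between the genotypes for 2 of the 3 genes and for 50.0% of the 84 pathway genes. The positive PCR control, a template of fixed amount, also crossed earlier in NOD1-1IS-/- pools, at 19.5 ± 0.22 cycles against 19.7 ± 0.0052 cycles in WT (SD, n = 3 each), a difference of −0.21 cycles. The mean of the 3 reference genes differed by −0.30 cycles. The raw differences of *strada* and *cab39l* were close in size to that of the positive PCR control, and that of *stk11* was larger; the part of the plates in them was not tested.

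The base of the scaling set the sign of the small changes, as the plot of log2 fold changes by base shows. Over 12 bases (the 3 reference genes, 10 other choices of reference or none, and the positive PCR control), the log2 fold change was above 0 in 11 for *stk11*, in 10 for *strada* and in 6 for *cab39l*. It ran from −0.07 to 1.13 for *stk11*, from −0.28 to 0.93 for *strada* and from −0.32 to 0.89 for *cab39l*, with *nono* alone at the low end and *acta1b* alone at the high end each time. The reference genes themselves moved by −0.51 cycles (*nono*), −0.21 (*rpl13a*), −0.19 (*hprt1*), 0.16 (*b2m*) and 0.70 (*acta1b*) on raw Ct. Higher expression of *stk11* in NOD1-1IS-/- passed the threshold in 5 of the 12 bases. These were all 5 reference genes (log2 fold change 0.42, where 22.6% of the 84 genes were called higher), the mean of the pathway genes (0.37, with 21.4%), raw Ct (0.43, with 25.0%), *b2m* alone (0.59, with 46.4%) and *acta1b* alone (1.13, with 65.5%). With *b2m* alone *strada* was called higher too, and with *acta1b* alone all 3 genes were. In both of these bases the spread of a single reference gene is shared by every gene. The standard error from limma was the same for all genes there, 0.38 with *acta1b* and 0.17 with *b2m*. Limma counts that shared spread as if each gene had measured it anew, so its p-values in these bases are too small. The order of the 3 genes, *stk11* above *strada* above *cab39l*, and their distances are the same in every base by construction.

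**Figure D4:**
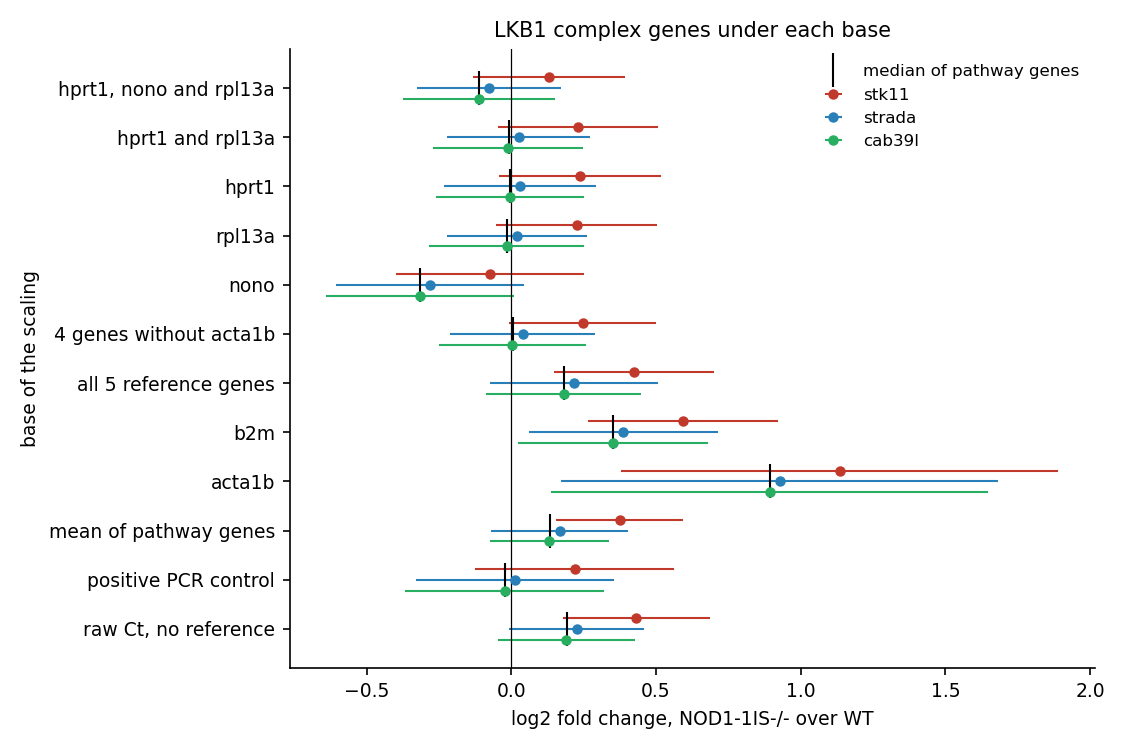
Log2 fold change of NOD1-1IS-/- over WT (horizontal axis) for stk11, strada and cab39l under 12 bases of the scaling (rows), with 95% confidence intervals from limma; vertical ticks mark the median of the 84 pathway genes under the same base. The 3 genes and the median shift together, from nono alone (stk11 at −0.07) to acta1b alone (stk11 at 1.13), and stk11 stays 0.24 above the median.

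The transcripts whose values over the 6 pools were most like those of the members were found by the root mean square difference of −ΔCt, after each gene was centered on its own mean. For *stk11* these were *fkbp8*, an FK506-binding protein gene, with a difference of 0.074 cycles, and *rps6ka1*, which codes for a ribosomal S6 kinase of the RSK family, with 0.084, against a median of 0.187 over the genes outside the complex. For *strada* they were *ptenb*, a gene for the lipid phosphatase that opposes PI3K (0.064), and *mtor*, which codes for the kinase of mTORC1 and mTORC2 (0.068), against a median of 0.182. For *cab39l* they were *rragca*, a Rag GTPase gene of amino acid sensing (0.046), and *fkbp1aa*, which codes for an FKBP12 protein, the partner of rapamycin (0.062), against a median of 0.168. The members differed from each other by 0.144 (*stk11* and *strada*), 0.141 (*stk11* and *cab39l*) and 0.137 cycles (*strada* and *cab39l*). Of the 81 pathway genes outside the complex, 17 were closer to *stk11* than *strada* was, 17 were closer to *stk11* than *cab39l* was, and 21 were closer to *strada* than *cab39l* was. All these profiles share the same pools and the same reference mean, so the likeness is a description over 6 pools.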

How the data were processed

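Ct values of the mTOR array were taken for 3 pools of NOD1-1IS-/- and 3 of WT larvae, with 1 well per gene and pool. The authors reverse transcribed 1000 ng of total RNA and ran 40 cycles of SYBR Green PCR, and deposited raw Ct values (another unit than counts, a reversed log2 scale). The settings of threshold and baseline are not given in the sources used here. The authors also deposited 1 linear ratio per gene and genotype, 2 to the power of −ΔCt, which the raw Ct values gave back with *hprt1*, *nono* and *rpl13a* (largest difference 4e-07 on the log2 scale). A deposited table of the authors' own fold changes was not used. All 534 gene wells had a Ct between 14.6 and 29.0, and nothing was filtered. Arrays have no read depth, and 3 pools per genotype limit the precision.

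For the main comparison, limma 3.58.1 (R 4.3.3) fitted −ΔCt of all 84 pathway genes by genotype (lmFit, then eBayes), its two-sided p-values were adjusted by Benjamini-Hochberg across the whole set, and genes under 0.05 were called. Single genes and ratios were compared with exact permutation tests (scipy 1.17.1). The fit was tested on simulated data in which each gene varied on its own, so that test does not cover spread that genes share. Alternatives were other bases of the scaling, raw Ct, the replicate number as a block, a trended robust prior, the ratio of mean linear values and leaving out each pool. The positive PCR control as the base was added after seeing the data. Named are the members, the reference genes, the AMPK genes listed and the 2 genes nearest to each member in profile. The gene *akt2l* is named in a caption only because it lies off the axis. The members and lists were chosen with earlier results of these data known.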

Additional observations from a re-analysis of the deposited data

How the results depend on the processing

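With the replicate number as a block, the log2 fold changes stayed at 0.13, −0.08 and −0.11 for *stk11*, *strada* and *cab39l*, with adjusted p from limma of 0.649, 0.813 and 0.683. Whether equal numbers mark a shared clutch is not given, so the numbers were not taken as pairs. Deviations of same-numbered pools correlated at −0.222, 0.0863 and −0.0495, and those of differently numbered pools between −0.354 and 0.456. With 3 pools per genotype these correlations cannot show whether pools were paired. The trended robust prior and each pool left out kept the direction of all 3 genes and made no call, the ratio of mean linear values, which has no test, kept the direction, and the ratio of *strada* over *cab39l* alone changed direction without a pool, between −0.064 and 0.153. The base moved the rest. Relative to all 5 reference genes the log2 fold changes of *stk11*, *strada* and *cab39l* were 0.42, 0.22 and 0.18, relative to *acta1b* 1.13, 0.93 and 0.89, relative to *b2m* 0.59, 0.39 and 0.35, against the average of all pathway genes 0.37, 0.17 and 0.13, and on raw Ct 0.43, 0.23 and 0.19. These bases called 1, 3, 2, 1 and 1 of the 3 genes, all as higher. Of all 84 pathway genes they called 22.6%, 65.5%, 46.4%, 21.4% and 25.0% higher, in the same order. Without *acta1b* the 4 others gave 0.039 for *strada* and 0.0035 for *cab39l*. For *strada*, *hprt1* and *rpl13a* together gave 0.025, *hprt1* 0.031, *rpl13a* 0.019 and the positive PCR control 0.013, and for *stk11* *nono* gave −0.074. With *acta1b*, *b2m* or *nono* alone, or the positive PCR control, the standard error from limma was the same for every gene. The spread of the base is shared by all genes there, so the p-values from limma under these bases are too small. With 3 pools and 1 well per gene, changes under about the bounds given above were not detectable.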
